A study of Mus musculus with 44 samples.

Results

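The genes described here are the 102 of 3613 listed genes whose symbols mark them as members of the endosome and vesicle trafficking families. They were chosen by the start of the symbol alone (Rab, Vps, Snx, Arf, Arl, Stx, Vamp, Chmp, the Ap1 to Ap4 adaptor subunits, Sec and Cop). The rule uses no measured values, but it was set with earlier results of these data known. They comprise 24 Rab, 13 Vps, 11 Snx, 12 Arf and Arl, 5 Stx, 3 Vamp, 6 Chmp, 12 adaptor, 13 Sec and 3 COPI genes. A symbol does not fix a function: Arl14ep, Arl2bp, Arl6ip1, Rab11fip2, Rab3gap2 and Sec23ip are partners or effectors of the family they are named after, Sec14l1 is a lipid-binding protein, and Vps72 is a chromatin remodelling subunit.

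The genes were measured by RNA sequencing in 44 single cells, captured after a sort for CD45+F4/80+CD41- cells from cultures of C57BL/6J neonatal calvarial cells. The treatment field gives 20 cells as cultured with megakaryocytes and 24 cells as cultured without them. Culture lasted 16 h for all 44 cells by the labels, with 50000 megakaryocytes for the 20. All cells of the first group came from plate 7 and all cells of the second from plate 3, so treatment, plate and capture cannot be told apart, and the groups are called plate 7 and plate 3 cells below. Titles of plate 3 cells also carry the abbreviation for megakaryocytes, against their treatment field. No animal or separate culture is named, so each plate counts as 1 sample, cells are not replicates, no test between the plates was possible, and every value describes these cells.

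The plates differed in the markers of the sorted cell type. Of 20 macrophage markers 19 are listed, and their summed level had a median of 28104 CPM (reads × 1e+06 / library reads of the cell) in plate 7 cells, from 4135 to 64838, against 11.6 CPM in plate 3 cells, from 0 to 176. Fcgr3, Fcgr1, C1qb, C1qc and Aif1 had no read in plate 3. Ptprc, which encodes CD45, was read in 20 of 20 plate 7 cells and 1 of 24 plate 3 cells. Adgre1, which encodes F4/80, was read in 17 and 1. The 9 listed osteoblast and fibroblast markers, of 20, had a summed median of 11.2 CPM in plate 7 cells, from 3.88 to 196, against 11994 CPM in plate 3 cells, from 4783 to 99811. Macrophage markers were thus at or near 0 in plate 3 cells, against their label, and the part of this difference in the values below was not tested.

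Membrane traffic moves proteins between the endoplasmic reticulum, the Golgi, endosomes, lysosomes and the cell surface in vesicles and tubules. Coats (COPI, COPII, clathrin with its AP adaptors, retromer with sorting nexins) select cargo and bend membrane, small GTPases of the Rab, Arf and Arl families mark each membrane and recruit effectors, and SNAREs (syntaxins and VAMPs) drive fusion. ESCRT complexes pinch receptors into the inside of late endosomes. Macrophages rely on this machinery to mature phagosomes, degrade cargo and recycle receptors, while matrix-producing stromal cells carry a heavy load of secreted protein from the endoplasmic reticulum.

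Sequence upstream of the start site is shown for members on which the comparison turns: Arl11 and Snx7, which had the most positive and the most negative log2 ratio between the plates among called members, Vps26a and Vps26b, alternative subunits of 1 complex that differed in opposite directions, and Rab32 and Snx5, which were higher in plate 7 and held a searched motif. The sequences are from RefSeq on GRCm38.p6 and end at or before the base ahead of RefSeq's start site. Capitals mark a PU.1 box (GAGGAAGT) in Rab32 and an E-box (CACGTG) in Snx5 and Vps26a.
Rab32: tagccagggaaGAGGAAGTgccgggaccag
Snx5: cactgggggagCACGTGgcgtgccgctcgc
Vps26a: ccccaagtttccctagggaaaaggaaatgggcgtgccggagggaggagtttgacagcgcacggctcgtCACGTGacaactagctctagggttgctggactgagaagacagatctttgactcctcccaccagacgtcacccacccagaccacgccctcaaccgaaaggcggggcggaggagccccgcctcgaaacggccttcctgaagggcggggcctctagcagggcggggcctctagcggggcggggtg
Vps26b: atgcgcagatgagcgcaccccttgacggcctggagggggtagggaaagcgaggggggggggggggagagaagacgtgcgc
Arl11: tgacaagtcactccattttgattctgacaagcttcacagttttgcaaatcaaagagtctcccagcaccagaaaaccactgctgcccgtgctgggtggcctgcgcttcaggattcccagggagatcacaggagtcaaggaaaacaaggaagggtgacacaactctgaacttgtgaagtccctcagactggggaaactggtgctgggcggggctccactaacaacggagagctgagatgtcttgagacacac
Snx7: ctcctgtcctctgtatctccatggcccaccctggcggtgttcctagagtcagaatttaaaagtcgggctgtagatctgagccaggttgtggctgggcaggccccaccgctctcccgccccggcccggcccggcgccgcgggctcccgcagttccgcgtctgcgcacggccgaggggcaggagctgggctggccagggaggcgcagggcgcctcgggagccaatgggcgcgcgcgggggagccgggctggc

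These stretches lie on the minus strand at chr10:10558232-10558261 (Rab32), chr2:144270604-144270633 (Snx5), chr10:62486806-62487055 (Vps26a, 1 of 2 start sites in the table) and chr9:27030095-27030174 (Vps26b). By GENCODE M21, the Rab32 and Snx5 stretches lie inside the span of the gene, downstream of its outermost start, and their 250-base windows hold 58 exon bases of Rab32 and 160 of Snx5 and Mgme1, while the Vps26b window holds 170 exon bases of Ncapd3. Arl11 lies on the plus strand at chr14:61309503-61309752 and Snx7 on the minus strand at chr3:117868937-117869186. The Snx7 window had 72.4% G and C and the Arl11 window 52%. Of the 102 members 81 had an entry, with 96 windows of 250 bases, searched on both strands. The E-box was in 12 of those 96 windows (12.5%), against 6.02% of all 32851 promoter windows. Its 11 genes were Ap2m1, Arf5, Rab21, Rab3gap2, Sec22c, Sec23ip, Sec62, Snx5, Snx8, Vamp4 and Vps26a, of which 2 were called higher and 1 lower in plate 7. Rab32 was the single member with a PU.1 box, in 1 of 96 member windows (1.04%), against 2.44% of all windows. The AP-1 site TGACTCA was in 3 member windows (3.12%, against 4.46% of all) and the TEAD site GGAATG in 12 (12.5%, against 12.6%). Genes with the AP-1 site were Arl14ep, Sec14l1 and Snx10. Sec14l1 and Snx10, and Stx8 with the TEAD site, were also called higher, and their windows are not shown. None of the 4 motifs contains another, though the PU.1 box and the TEAD site share the letters GGAA, and a match is a description of the sequence.

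The median library held 834834.5 reads in plate 7 (69181 to 1212604) and 527930 reads in plate 3 (270537 to 714465). The least depth was that of plate 7 cell 11, with 69181 reads, and plate 7 cell 16, with 71585. The deposited values are reads scaled by library size and by a whole number per gene that is not its length, so levels are compared between cells and plates for 1 gene at a time. Sums over a complex and shares of reads between related genes are not corrected for length and are read only across cells and plates. Intervals below are 95% and cover counting error only, since reads without molecular identifiers are not independent molecules.

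Of the 102 members 98 were read in at least 10 of the 44 cells. A member was called higher or lower in plate 7 when its pooled level (summed reads over summed library reads) differed at least 2-fold and its mean over cells of log2(CPM + 1) differed in the same direction. The rule called 21 of 98 members higher (21.4%) and 17 lower (17.3%). Over all 3271 listed genes read in at least 10 cells, 21.5% were called higher and 28.2% lower, so the share of members called higher was that of all genes. The median difference in mean log2(CPM + 1), plate 7 minus plate 3, was -0.67 over members and -1.10 over all genes. For pooled levels the median log2 ratio was 0.21 over members and -0.14 over all genes. In 24 of the 98 members these measures had opposite signs, with a higher pooled level and a lower mean log level or the reverse. Scaling by a median of ratios instead of library reads gave 28 members higher and 14 lower, a share of higher calls among all calls of 66.7% against 55.3%. Over all genes that scaling called 24.1% higher and 24.4% lower, a share of 49.7% against 43.2%. Rab4a, Stx16, Ap3m2 and Sec22c were read in too few cells to be called.

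**Figure D1:**
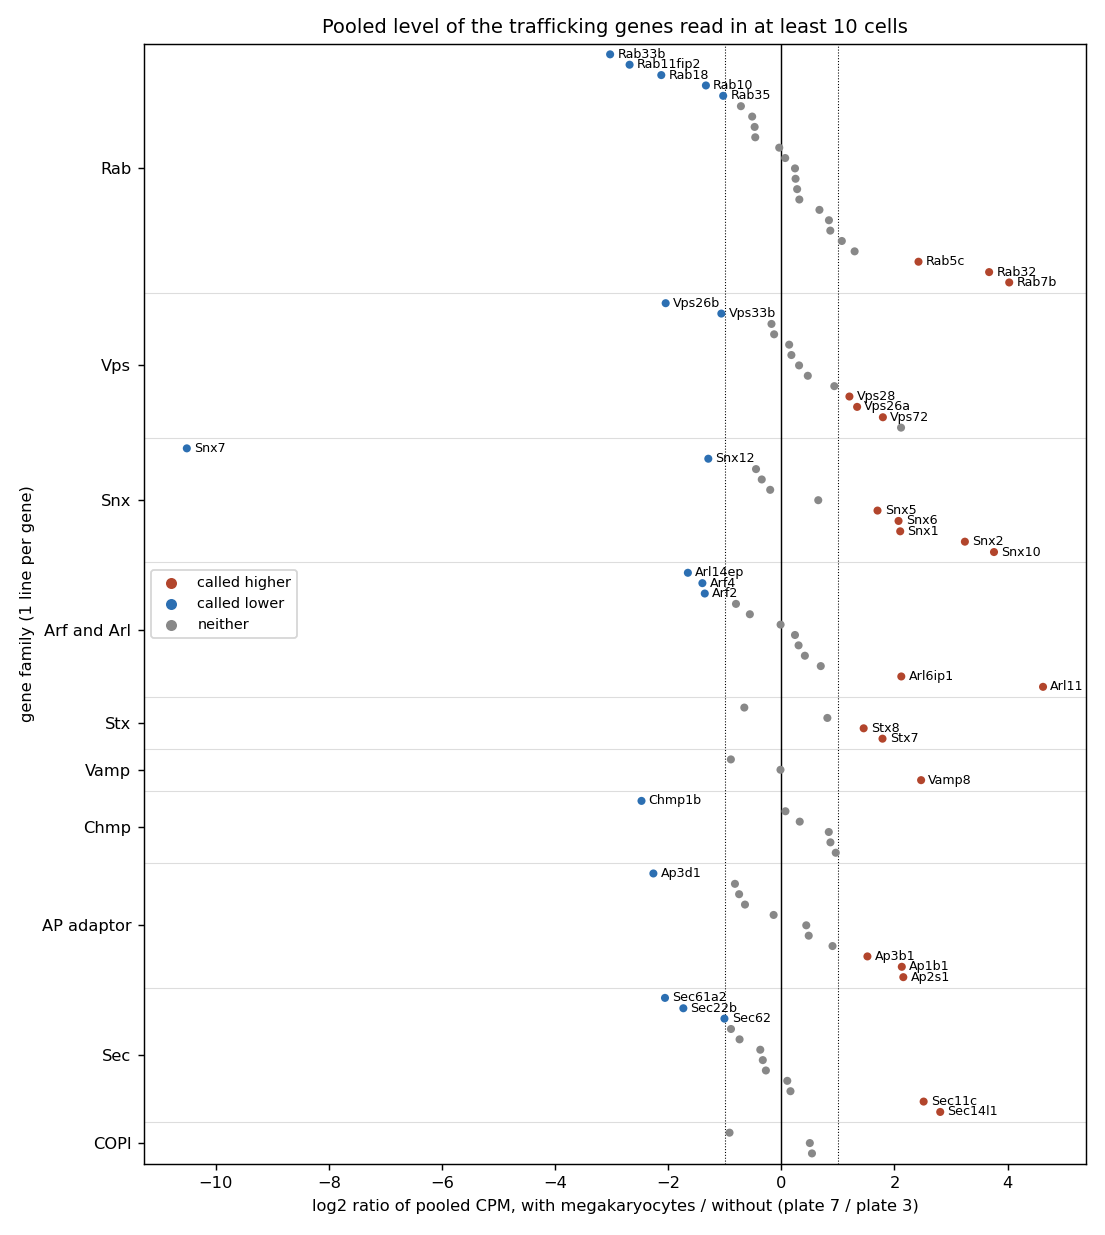
Each point is 1 of the 98 members read in at least 10 cells, placed by the log2 ratio of its pooled CPM in plate 7 (with megakaryocytes) over plate 3 (without) on the horizontal axis, and grouped by family on the vertical axis. Dotted lines mark a 2-fold difference, red points are the 21 members called higher, blue the 17 called lower, and grey points beyond a line had a mean log level of the opposite sign. Sorting nexins spread the widest, from -10.51 for Snx7 to 3.76 for Snx10.

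Sorting nexins differed most as a family, with 5 of 11 called higher and 2 lower (45.5% and 18.2%, against 21.5% and 28.2% of all genes). The 4 genes called the SNX-BAR coat here, Snx1, Snx2, Snx5 and Snx6, were all higher in plate 7. Their proteins bind endosomal lipid, bend the membrane into tubules and carry receptors from endosomes to the Golgi and the cell surface. Snx4, Snx7 and Snx8 also encode sorting nexins with a BAR domain but are not in this set. None of them was higher, at log2 ratios of -0.45, -10.51 and -0.20. Snx2 had a lowest, median and highest level of 0, 1442 and 3087 CPM over plate 7 cells and of 0, 129.2 and 548 CPM over plate 3 cells. In 18 of 20 plate 7 cells it was above every plate 3 cell. Its pooled level was 1510 CPM from 23619 reads against 159 CPM from 1978 reads, 9.48-fold higher (9.05 to 9.93), and its mean log2(CPM + 1) was 9.85 ± 2.43 (SD over 20 cells) against 5.94 ± 2.68 (24 cells).

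The other coat genes overlapped more between the plates. Snx1 (chromosome 9, 66088133 to 66126587, minus strand) ran from 0 through a median of 213 to 1205 CPM in plate 7 and from 0 through 35.9 to 287 CPM in plate 3. Its pooled level was 4.29-fold higher in plate 7 (4.00 to 4.61), and 7 plate 7 cells lay above all plate 3 cells. Snx6 (chromosome 12, 54746349 to 54795703, minus strand) had a median of 377 CPM (0 to 1436) against 78.8 CPM (1.63 to 726) and a pooled level 4.20-fold higher (3.97 to 4.45), with 3 plate 7 cells above all plate 3 cells. Snx5 (chromosome 2, 144250123 to 144270906, minus strand) was read in every plate 7 cell, with a median of 183 CPM (3.31 to 935) against 91.0 CPM (0 to 321), and was 3.25-fold higher (3.07 to 3.44). Its exons overlap Mgme1 on the other strand, and reads of overlapping genes cannot be told apart where the counting is not given.

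Summed over the 4 coat genes, a plate 7 cell had a median of 2557 CPM, from 27.9 to 4408, and a plate 3 cell 424 CPM, from 86.5 to 1003. Of 20 plate 7 cells 18 were above every plate 3 cell. The single plate 7 cell below them all was cell 16, at 27.9 CPM, and the other shallow cell, 11, was at 838 CPM. Within a plate the 4 genes did not follow each other closely: Spearman correlations of their levels across cells ran from -0.23 (Snx1 with Snx2) to 0.49 (Snx2 with Snx6) over the 20 plate 7 cells and from -0.30 (Snx5 with Snx6) to 0.40 (Snx2 with Snx5) over the 24 plate 3 cells, where the points share plate and run. Snx2 held 82.7% of the Snx1 and Snx2 reads in plate 7 (82.2 to 83.1%) and 68.3% in plate 3 (66.6 to 70.0%).

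Snx10 and Snx7 stood at the ends of the family. Snx10 encodes a sorting nexin of endosomes whose loss is known from osteoclast disease (chromosome 6, 51523901 to 51590679, plus strand). It was read in 17 of 20 plate 7 cells, with a median of 118 CPM and a highest value of 2109 CPM, and in 13 of 24 plate 3 cells, with a median of 2.15 and a highest value of 121.04 CPM. Of 20 plate 7 cells 10 exceeded all plate 3 cells, and the pooled level was 13.5-fold higher (12.1 to 15.2), with 40.8% of plate 7 reads in cell 19. Snx7 has a BAR domain too but acts with Snx4 in recycling and autophagy (chromosome 3, 117781647 to 117868936, minus strand). It had 1 read in plate 7, in cell 13, and 1159 reads over 21 of 24 plate 3 cells, with a median of 88.7 CPM and a highest value of 337 CPM. Every plate 3 cell with a read of it was above all 20 plate 7 cells, and the ratio of pooled levels was 1460-fold lower in plate 7 (262 to 57714). Leaving out plate 7 cell 13 and plate 3 cell 10, the top cells, left no plate 7 read. With the floor of 3 reads over the plate put in for 0, Snx7 was then 417-fold lower. The lower limit of its interval was 339-fold.

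Snx12, which binds endosomal lipid through its PX domain alone, was the other sorting nexin called lower, at 23.7 CPM pooled in plate 7 against 58.1 CPM in plate 3, 2.45-fold lower (2.16 to 2.78). It was read in 5 of 20 and 20 of 24 cells. Snx3, its close relative and a retromer adaptor, had the smallest difference of the family in mean log2(CPM + 1), -0.09, with medians of 110 and 105 CPM. Snx4, Snx8 and Snx17, the last a recycling adaptor of lipoprotein receptors, had log2 ratios from -0.45 to -0.20 and were not called, like Snx3 at 0.65. Without plate 7 cell 19 and plate 3 cell 11, Snx17 went from -0.35 to -1.10 and was then called lower, and Snx8 went from -0.20 to -0.82 without its top cells. Here and below such moves stand beside a general one. Without the top cells of each gene the median log2 ratio of all genes went from -0.14 to -0.47.

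**Figure D2:**
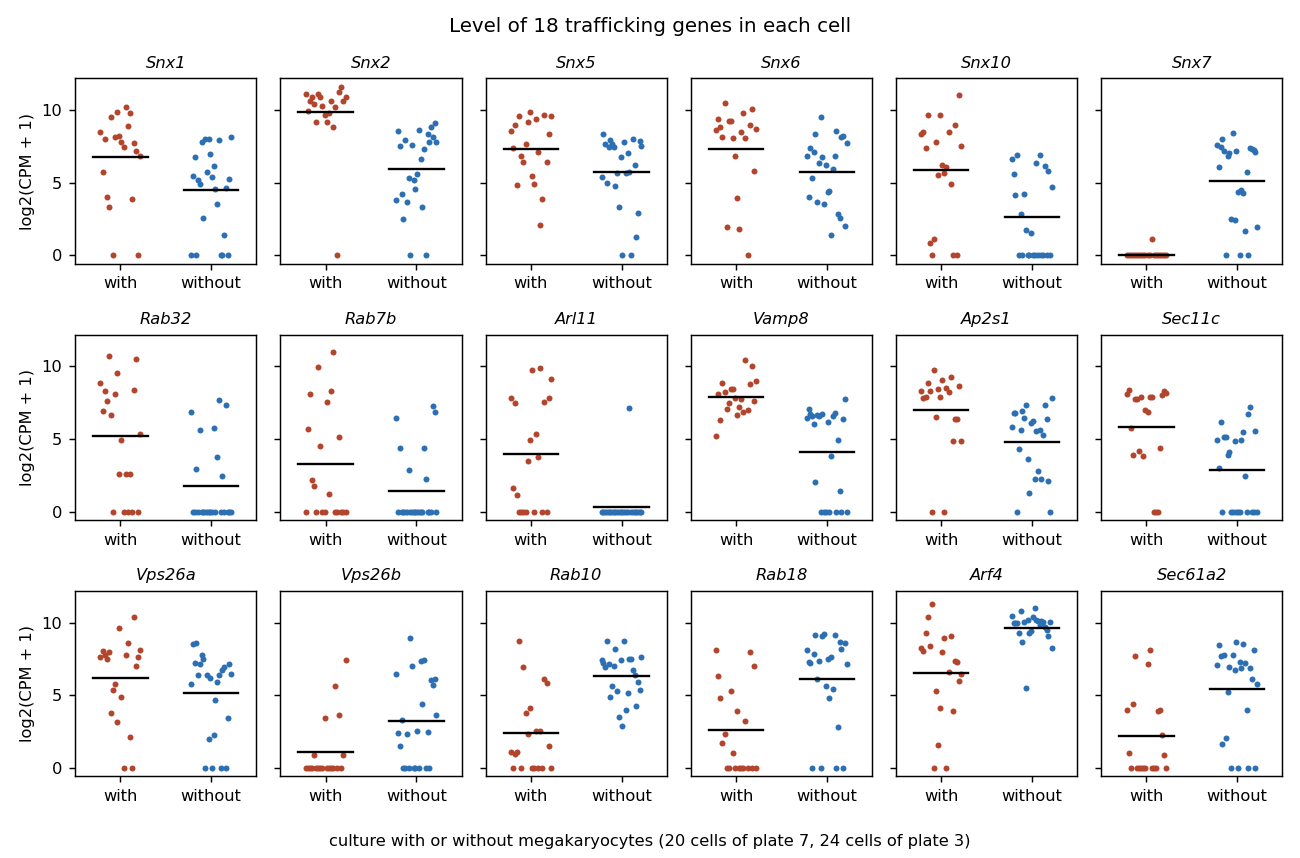
Level of 18 members as log2(CPM + 1) in each cell (vertical axis), for 20 plate 7 cells (with, red) and 24 plate 3 cells (without, blue), where a black line is the mean over cells. Snx2 lies above every plate 3 cell in 18 of 20 plate 7 cells, Snx7 has a read in 1 plate 7 cell, and Arl11 has reads in 1 plate 3 cell.

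The core of retromer, which selects cargo at endosomes, did not share the difference of the Snx1, Snx2, Snx5 and Snx6 coat. Vps35, the scaffold, had a median of 214 CPM (0 to 1342) in plate 7 and 363 CPM (1.43 to 1403) in plate 3, and pooled levels of 466 and 509 CPM. Vps29 had pooled levels of 316 and 229 CPM and a difference in mean log level of 0.01. Both were read in 19 of 20 and 24 of 24 cells. Summed over Vps35, Vps29, Vps26a and Vps26b, the median cell was at 851 CPM in plate 7 (0 to 2267) and 774 CPM in plate 3 (121.8 to 1997), and the ranges overlapped almost whole.

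The 2 alternative Vps26 subunits went in opposite directions. Vps26a (chromosome 10, 62455235 to 62486805, minus strand) had a median of 188 CPM (0 to 1349) in plate 7 and 82.4 CPM (0 to 387) in plate 3, and was 2.53-fold higher pooled (2.37 to 2.70). Vps26b (chromosome 9, 27007771 to 27030065, minus strand) was read in 6 of 20 plate 7 cells, up to 168 CPM, and in 16 of 24 plate 3 cells, with a median of 4.72 and a highest value of 503 CPM. It was 4.13-fold lower pooled (3.49 to 4.90), and 9.90-fold lower without plate 7 cell 20, which held 73.4% of its plate 7 reads, and plate 3 cell 9. Vps26a took 95.6% of the reads of both genes in plate 7 (94.9 to 96.2%) and 67.5% in plate 3 (65.3 to 69.6%). In plate 7, 12 cells had Vps26a reads alone and none had Vps26b alone, against 7 and 3 cells in plate 3.

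Of 13 Vps genes tested 3 were called higher and 2 lower (23.1% and 15.4%, against 21.5% and 28.2% of all genes). Among the other Vps genes Vps28, of ESCRT-I, was 2.30-fold higher pooled (2.14 to 2.48), with exons that overlap Tonsl, and Vps72 was 3.47-fold higher (2.98 to 4.06). Vps28 was under 2-fold with the total of listed reads or the deposited means. Vps33b, a fusion factor of late endosomes known for platelet granules, was 2.09-fold lower (1.67 to 2.61) and rested on few cells, with reads in 5 plate 7 and 8 plate 3 cells and pooled levels of 8.38 and 17.5 CPM. Without plate 7 cell 2, with 80.2% of its reads there, and plate 3 cell 1 it was 5.27-fold lower. Vps41, of the HOPS tether that joins late endosomes to lysosomes, had pooled levels of 213 and 49.1 CPM but was read in 8 of 20 and 14 of 24 cells, so its mean log level differed by -0.40 and it was not called. Vps4b, Vps13b, Vps25, Vps36 and Vps51, like Vps29 and Vps35, had pooled log2 ratios between -0.17 and 0.94. Without their top cells Vps36 went from 0.18 to -0.89, Vps13b from 0.94 to 0.23, Vps4b from -0.17 to -0.78 and Vps51 from 0.14 to 0.80, none of them called.

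Of 23 Rab genes tested 3 were called higher and 5 lower (13.0% and 21.7%, against 21.5% and 28.2% of all genes). Rab32 directs traffic to phagosomes and lysosome-related organelles (chromosome 10, 10545002 to 10558265, minus strand). Its level was 0, 68.7 and 1680 CPM at the lowest, median and highest plate 7 cell and 0, 0 and 204 CPM in plate 3, with reads in 15 of 20 and 8 of 24 cells. Of the plate 7 cells 7 exceeded all plate 3 cells, and the pooled level of 330 against 25.9 CPM was 12.8-fold higher (11.4 to 14.3). Rab7b, which acts between late endosomes and the Golgi (chromosome 1, 131688695 to 131715439, plus strand), was read in 11 of 20 cells, with a median of 1.88 and a highest value of 2061 CPM, against 7 of 24 cells up to 151 CPM. Pooled, it was 16.3-fold higher (13.9 to 19.3), but cell 14 alone held 52.1% of the plate 7 reads. Its relative Rab7, the GTPase of late endosomes and lysosomes, was read in all 44 cells at medians of 389 and 286 CPM, and Rab7b took 26.1% of the reads of both in plate 7 (25.3 to 26.9%) and 3.79% in plate 3 (3.22 to 4.42%). Rab5c, of early endosomes, was 5.37-fold higher (4.08 to 7.18) at low levels, with medians of 8.80 and 2.56 CPM, and 16.5-fold higher by the deposited means.

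Of the Rab genes called lower, Rab10 acts in exocytosis and endosomal recycling (chromosome 12, 3247428 to 3309969, minus strand). It was read in 13 of 20 plate 7 cells, with a median of 1.49 and a highest value of 430 CPM, and in every plate 3 cell, with a median of 113 CPM (6.50 to 428). All 24 plate 3 cells lay above the plate 7 median. The pooled level was 2.52-fold lower (2.31 to 2.75), and 6.61-fold lower without plate 7 cell 5, which held 68.7% of the reads, and plate 3 cell 14. Rab18, of the endoplasmic reticulum and lipid droplets, had medians of 1.67 CPM (0 to 280) and 162 CPM (0 to 594) and was 4.36-fold lower (4.02 to 4.73), with 8 plate 3 cells above every plate 7 cell. Rab35, Rab33b and the Rab11 effector Rab11fip2 were called from sparse reads, in 7, 3 and 3 plate 7 cells and 13, 8 and 7 plate 3 cells. Rab35, of recycling at the cell surface, was 2.04-fold lower (1.76 to 2.37), and 6.05-fold lower without plate 7 cell 8 and plate 3 cell 15, and lost its call with a median of ratios, deposited means or thinned cells. Rab33b, of the Golgi and autophagy, was 8.15-fold lower (5.78 to 11.8), 17.2-fold lower without plate 7 cell 6 and plate 3 cell 13 and 4.37-fold lower in cells thinned to 250000 reads, and Rab11fip2 went from 6.42-fold (4.56 to 9.26) to 21.0-fold lower without plate 7 cell 20 and plate 3 cell 9.

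The other 15 Rab genes tested were not called. Rab31, which carries cargo from the Golgi to endosomes, had a median of 1288 CPM (0 to 7872) in plate 7 and 681 CPM (0 to 2365) in plate 3. Its pooled level of 1928 against 785 CPM passed 2-fold, but its mean log level differed by -0.05. Rab8b, of exocytosis, was alike: pooled levels of 304 and 145 CPM, a difference of -0.05, and a median that was lower in plate 7 (14.2 against 57.5 CPM). Both were called higher when plate 7 cells 11 and 16 were left out. Rab1, of traffic from the endoplasmic reticulum to the Golgi, was read in all 44 cells, and Rab2a, Rab12 and Rab6a in every plate 3 cell but in 12, 11 and 14 of 20 plate 7 cells. Log2 ratios of the 13 uncalled Rab genes other than Rab31 and Rab8b ran from -0.72 to 0.87. Several of these rested on single cells. Without plate 7 cell 6, which held 76.2% of its reads there, and plate 3 cell 18, Rab12 went from 0.07 to -1.69. Rab21 went from -0.72 to -1.80 without plate 7 cell 18 and plate 3 cell 24, and Rab2a from -0.46 to -1.03 without cells 19 and 15. These 3 were then called lower, while Rab22a went from 0.84 to -0.78 without plate 7 cell 19, with 80.2% of the reads, and plate 3 cell 8 and was not called. Rab28 turned from 0.32 to -0.39 with deposited means, -0.37 in thinned cells and -0.13 without its top cells. Rab4a, of fast recycling, had 2 reads in plate 7 and 206 reads in 6 plate 3 cells and was below the detection limit for a call.

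Arf and Arl genes, whose GTPases recruit coats and place lysosomes, gave 2 higher and 3 lower of 12 (16.7% and 25%, against 21.5% and 28.2% of all genes). Arl11, a small Arf-like GTPase studied in macrophage activation (chromosome 14, 61309753 to 61311936, plus strand), was read in 13 of 20 plate 7 cells (65.0%, 40.8 to 84.6%), with a median of 11.2 and a highest value of 934 CPM. In plate 3 it was read in 1 of 24 cells (4.17%, 0.105 to 21.1%), cell 17, with all 62 reads at 137.7 CPM. Pooled, Arl11 was 24.7-fold higher in plate 7 (19.2 to 32.3). Without plate 3 cell 17 and plate 7 cell 15, plate 3 had no read of Arl11. With the floor of 3 reads over the plate put in for 0, it was then 362-fold higher, with a lower interval limit of 294-fold. In plate 7, Arl11 and Rab32 were read together in 11 cells and apart in 6. Arl6ip1, which shapes the endoplasmic reticulum, was 4.35-fold higher (4.09 to 4.62), with medians of 228 and 41.5 CPM.

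Arf4 acts at the Golgi (chromosome 14, 26638074 to 26665084, plus strand, with exons that overlap Pde12 on the other strand). It had a median of 161 CPM (0 to 2510) in plate 7 and 1009 CPM (45.3 to 2031) in plate 3. Only 2 plate 7 cells were above the plate 3 median, although cell 6 was above all plate 3 cells, and the pooled level was 2.63-fold lower (2.55 to 2.72). Arf1, which drives COPI coat assembly, was read in all 44 cells at medians of 343 and 280 CPM and was not called. Arf4 took 45.2% of the Arf1 and Arf4 reads in plate 7 (44.4 to 46.1%) and 74.4% in plate 3 (73.7 to 75.0%). Arl14ep, an effector in the movement of vesicles with MHC class II, had medians of 14.7 and 354 CPM and was 3.14-fold lower (2.98 to 3.32), and Arf2 was 2.56-fold lower (2.37 to 2.76). Arl8a and Arl8b, which couple lysosomes to microtubule motors, had log2 ratios of 0.30 and 0.70, and the range over all 7 uncalled genes was -0.80 to 0.70. At its low end Arf5 was at 0.02 by the deposited means and at -1.42 in thinned cells, where it was called lower. Arl2bp went from -0.01 to -3.67 without plate 7 cell 5 and plate 3 cell 2 and to -1.19 in thinned cells, and was called lower under both.

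Among SNAREs, the partners Stx7, Stx8 and Vamp8 of late endosome fusion were called higher, and no Stx or Vamp gene was called lower. Of 4 Stx genes tested 50% were called higher and of 3 Vamp genes 33.3%. Over all genes 21.5% were called higher and 28.2% lower. Vamp8 (chromosome 6, 72385223 to 72390703, minus strand) was read in 20 of 20 plate 7 cells, at a median of 224 CPM (36.5 to 1399), and in 17 of 24 plate 3 cells, at 68.4 CPM (0 to 214). In 11 plate 7 cells it was above every plate 3 cell, and it was 5.54-fold higher pooled (5.12 to 6.00). Stx7 (chromosome 10, 24149302 to 24190222, plus strand) had medians of 39.8 CPM (0 to 1174) and 24.9 CPM (0 to 147) and was 3.45-fold higher (3.16 to 3.78), with 7 plate 7 cells above every plate 3 cell. Stx8 was also the Stx gene with the smallest difference in mean log2(CPM + 1), 0.46, at 28.7 against 10.5 CPM pooled and reads in 9 of 20 and 11 of 24 cells. Vti1b, the other SNARE of that set and no member, was not called, with a log2 ratio of 0.26 and reads in 16 of 20 and 19 of 24 cells.

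Vamp3, of early and recycling endosomes, had nearly equal pooled levels of 185 and 187 CPM but was read in 9 of 20 and 22 of 24 cells, with medians of 0 and 164 CPM. Vamp8 took 63.3% of the reads of Vamp8 and Vamp3 in plate 7 (62.3 to 64.4%) and 23.6% in plate 3 (22.1 to 25.1%). In plate 7, 11 cells had reads of Vamp8 alone and none of Vamp3 alone, against 0 and 5 cells in plate 3. Vamp4, of the Golgi, was at 7.29 and 13.5 CPM pooled, and Stx3 and Stx4a, of the cell surface, had log2 ratios of -0.65 and 0.81. Plate 7 cell 3 held 99.3% of the Stx3 reads there, and without it and plate 3 cell 5 Stx3 had 2 reads against 218, was 135.2-fold lower (36.99 to 1124) and was then called lower. Vamp4 went from a log2 ratio of -0.89 to -1.42 without plate 7 cell 19 and plate 3 cell 7 and was then called lower. Stx16, a Golgi syntaxin read in 5 and 4 cells, was below the detection limit. Sec22b, a SNARE between the endoplasmic reticulum and the Golgi, was lower, with medians of 2.46 CPM (0 to 395) and 68.9 CPM (0 to 273), 3.32-fold pooled (2.98 to 3.71) and 5.18-fold without plate 7 cell 18 and plate 3 cell 19. By deposited means it was 1.98-fold lower and in thinned cells 1.94-fold lower, and was called under neither.

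ESCRT-III genes of the Chmp family, whose proteins sever membrane necks, gave 1 lower and none higher of 6. The share called lower was 16.7%, while of all genes 28.2% were called lower and 21.5% higher. Chmp1b was read in 6 of 20 plate 7 cells, up to 133.2 CPM, and in 18 of 24 plate 3 cells, with a median of 24.6 and a highest value of 729 CPM. Its pooled level was 5.55-fold lower (4.76 to 6.50), and 9.31-fold lower without plate 7 cell 8, which held 61.8% of the reads there, and plate 3 cell 9. Its relative Chmp1a had pooled levels of 132.7 and 68.1 CPM with medians of 10.8 and 32.7 CPM, and Chmp5 medians of 211 and 104 CPM. The 5 uncalled Chmp genes had pooled log2 ratios from 0.07 to 0.96, of which Chmp6 went from 0.87 to -0.05 without plate 7 cell 19 and plate 3 cell 11, while 4 of the 6 genes had the 2 measures in opposite directions.

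AP adaptors link cargo to clathrin, AP-1 at the Golgi and endosomes, AP-2 at the cell surface and AP-3 on the way to lysosome-related organelles. Each had 1 subunit called higher. Of 11 adaptor genes tested 27.3% were called higher and 9.09% lower, against 21.5% and 28.2% of all genes. Ap2s1, the small subunit of AP-2 (chromosome 7, 16738410 to 16749294, plus strand), had a median of 269 CPM (0 to 844) in plate 7 and 48.3 CPM (0 to 221) in plate 3, with 12 plate 7 cells above all plate 3 cells. It was 4.46-fold higher pooled (4.13 to 4.82). The other AP-2 subunits listed, Ap2a2 and Ap2m1, had pooled levels of 331 against 244 CPM and of 120.9 against 64.6 CPM and were not called. Summed, the 3 had medians of 745 CPM (0 to 3143) and 396 CPM (152 to 612), with 12 plate 7 cells above every plate 3 cell. The highest value, 3143 CPM, was that of the shallow cell 16.

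Ap1b1, a large subunit of AP-1 (chromosome 11, 4986824 to 5042791, plus strand), had medians of 110 CPM (0 to 966) and 0.843 CPM (0 to 416) and was 4.38-fold higher (4.04 to 4.75). The 3 other AP-1 subunits, Ap1g1, Ap1m1 and Ap1s1, had log2 ratios from -0.64 to 0.48. Within AP-3 the subunits diverged. Ap3b1 was 2.87-fold higher (2.60 to 3.17), with 41.8% of its plate 7 reads in cell 17, while Ap3d1 (chromosome 10, 80706956 to 80742264, minus strand) was 4.80-fold lower (4.34 to 5.31), with medians of 10.1 CPM (0 to 182) and 30.4 CPM (0 to 563) and 7 plate 3 cells above every plate 7 cell. Ap3m1 and Ap3s2 were not called, at log2 ratios of -0.82 and -0.75. Without plate 7 cell 3 and plate 3 cell 19 for Ap3m1, and plate 7 cell 9 and plate 3 cell 1 for Ap3s2, these became -1.53 and -1.08 and both were called lower. Ap3m2, the subunit known from neurons, was read in 3 cells.

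The Sec genes, which serve entry into and exit from the endoplasmic reticulum, had the lowest family median difference, -1.87, against -1.10 over all genes. Of 12 tested 3 were called lower and 2 higher. These shares of 25% and 16.7% were no larger than the 28.2% and 21.5% of all genes. Sec61a2, an alternative channel subunit of the translocon (chromosome 2, 5870987 to 5895432, minus strand, exons overlapping Nudt5 on the other strand), had medians of 0.453 CPM (0 to 280) and 116 CPM (0 to 411). It was 4.16-fold lower pooled (3.77 to 4.60), and 6.62-fold lower without plate 7 cell 5 and plate 3 cell 2. The main channel subunit Sec61a1 had pooled levels of 755 and 947 CPM, and Sec61a2 took 4.24% of the reads of both in plate 7 (3.89 to 4.61%) against 12.8% in plate 3 (12.2 to 13.4%). Sec62, which helps proteins into the channel, was 2.01-fold lower (1.89 to 2.14), and was not called with a median of ratios, deposited means, thinned cells or without the shallow cells. The 3 translocon genes together, Sec61g included, had medians of 463 CPM (12.0 to 2283) and 892 CPM (356 to 2734). Of 20 plate 7 cells 10 were below every plate 3 cell, the shallow cells 11 and 16 among them.

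Signal peptidase, which trims new secretory proteins, has 2 alternative catalytic subunits, of which 1 was called. Sec11c was read in 17 of 20 plate 7 cells, at a median of 170 CPM (0 to 325), and in 14 of 24 plate 3 cells, at 10.5 CPM (0 to 143.3). In 10 plate 7 cells it was above all plate 3 cells, and it was 5.72-fold higher pooled (5.11 to 6.42). Sec11a was at 209 and 348 CPM pooled and was not called. Sec11c took 43.2% of the reads of both in plate 7 (41.9 to 44.5%) and 7.39% in plate 3 (6.65 to 8.18%). Sec14l1 was 7.01-fold higher (5.89 to 8.38), and 11.2-fold higher without plate 3 cell 17, with 60.4% of the reads there, and plate 7 cell 13.

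COPII and COPI coat genes, which carry cargo out of the endoplasmic reticulum and back from the Golgi, gave no call with all cells. Each coat has only 3 members, and of all genes 21.5% were called higher and 28.2% lower. The 3 COPII members Sec13, Sec24b and Sec24c had log2 ratios of -0.37, -0.89 and -0.27. Their summed medians were 166 CPM (1.14 to 1330) and 532 CPM (42.4 to 1108), with 5 plate 7 cells below every plate 3 cell and 2 above. Sar1b, the COPII GTPase and no member, had a log2 ratio of 0.82 and was not called. Sec24b was read in 8 of 20 and 20 of 24 cells. Without plate 7 cell 15, which held 60.3% of its reads there, and plate 3 cell 12 it went from 1.85-fold to 3.90-fold lower (3.53 to 4.31) and was then called. Copb1 was at 195 and 369 CPM pooled, read in 13 and 23 cells, and went from 1.89-fold to 2.12-fold lower, then called, without plate 7 cell 2 and plate 3 cell 19, while Cope and Copz1 had log2 ratios of 0.50 and 0.54. Sec23ip and Sec61g, at 0.16 and 0.10, were the other Sec genes not called, and Sec22c had 15 reads in all.

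**Figure D3:**
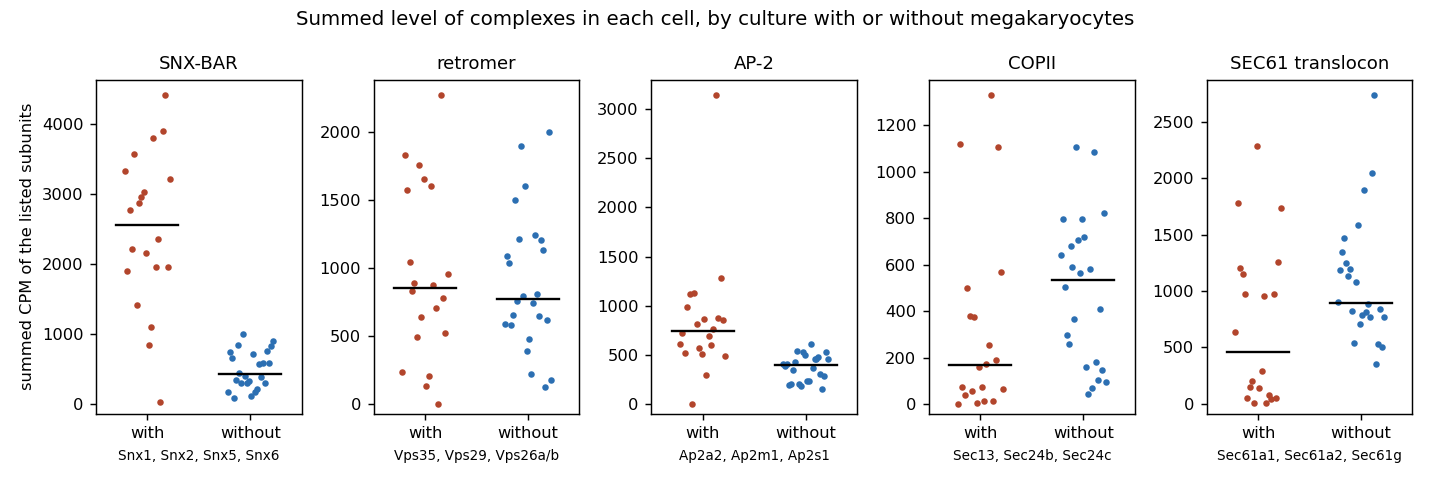
Summed CPM of the listed genes of 5 complexes in each cell (vertical axes, each with its own scale), for 20 plate 7 cells (with, red) and 24 plate 3 cells (without, blue), where a black line is the median. The SNX-BAR sum (Snx1, Snx2, Snx5 and Snx6 alone) is above every plate 3 cell in 18 of 20 plate 7 cells. The retromer sums overlap, and the SEC61 sum is below every plate 3 cell in 10 plate 7 cells.

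Other genes of the same routes, whose symbols the choice of members does not cover, were described by 9 lists. The counts of each list stand beside the shares over all genes, 21.5% called higher and 28.2% lower. Of 15 tested clathrin and endocytosis genes 5 were called higher and 4 lower. Dab2, a clathrin adaptor for lipoprotein receptors, was at 2039 against 187 CPM pooled, and the caveola coat gene Ptrf, with the largest difference of the list, at 52.3 against 1335 CPM. Plate 7 cell 17 held 98.2% of the Ptrf reads there, and without it and plate 3 cell 8 Ptrf went from a log2 ratio of -4.67 to -10.26, with 15 reads left against 14662. Cav1, the main caveola protein, had 7 reads in plate 7 and 6406 in plate 3. Of 18 tested genes in the list of cargo receptors of the secretory pathway none was called higher and 5 lower. The 5 were Lman1, Mcfd2, Tmed2, Kdelr2 and Ergic1. The share called lower, 27.8%, was near the 28.2% of all genes. Not all 18 are cargo receptors of that pathway: Sar1b is the COPII GTPase, and M6pr and Igf2r sort enzymes to lysosomes. Mcfd2, which exports proteins from the endoplasmic reticulum, was at 109 against 331 CPM.

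Among 13 other SNARE genes and factors 3 were called higher and 1 lower. Stxbp2, a syntaxin-binding protein of granule release, had 1975 reads in 17 plate 7 cells and 4 reads in plate 3. Of 8 tested genes in the list of ARF regulators and adaptors 2 were called higher and 4 lower. Among the 4 lower, Agap3 turned from a log2 ratio of -2.37 to 1.09 with the deposited means and lost its call. Arfrp1, also lower, is itself an ARF-related GTPase. The pair Cyth4 and Cyth3, exchange factors for ARF proteins, went apart: Cyth4 was read in 17 and 1 cells (2872 reads and 1 read), and Cyth3 in 2 and 22 cells (79 and 2466 reads). When plate 7 cell 17 and plate 3 cell 21 were left out, Cyth3 had 1 read against 1576 and was 1988-fold lower (356 to 78583). Leaving out plate 7 cell 5 and plate 3 cell 13 left no plate 3 read of Cyth4. Against the floor of 3 reads Cyth4 was then 553-fold higher, with a lower interval limit of 449-fold. Early endosome genes gave 1 higher and 2 lower of 7, with Rabep1, an effector of Rab5, at 21.7 against 86.7 CPM. Rabep1 went from a log2 ratio of -2.00 to -3.03 without plate 7 cell 12 and plate 3 cell 21, and to -1.35 by the deposited means.

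Of the 6 genes in the list of remaining ESCRT genes, Hgs, Ist1, Mvb12a, Pdcd6ip and Usp8 gave no call. The sixth, Lyst, a lysosomal trafficking regulator that is no ESCRT subunit, was called higher at 36.7 against 4.83 CPM. Plate 3 cell 9 held 98.3% of its reads there, and without it and plate 7 cell 13 Lyst had 384 reads against 1 and was 310.7-fold higher (55.4 to 12303). Retromer, retriever and WASH partners gave 1 higher and 1 lower of 8 (Commd6, 32.6 against 79.6 CPM), tethers and golgins 4 and 6 of 14 and RAB regulators 3 and 2 of 13. Of the 6 called lower in the list of tethers and golgins, Nrbp1, a pseudokinase adaptor, and Hook3, a microtubule linker, are neither. Nrbp1, which had the largest difference of that list, was at 51.9 against 160 CPM. Its log2 ratio of -1.63 became -3.38 when plate 7 cell 13, with 75.9% of the reads there, and plate 3 cell 12 were left out. Tbc1d15, a RAB regulator, was at 64.1 against 276 CPM and went from -2.11 to -2.85 without plate 7 cell 20 and plate 3 cell 12. Of the list genes called higher, Dnm2, Exoc8 and Mtmr6 lost the call without their top cells. Golgb1 lost its call with deposited means, in thinned cells and without the shallow cells. Other list genes, among them Trappc9 (higher) and Igf2r (lower), gained a call without their top cells.

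Fewer members were read per cell in plate 7 than in plate 3, although plate 7 was sequenced more deeply. A plate 7 cell had reads of a median of 68 members (36 to 83) and a plate 3 cell of 77 (55 to 90). Thinned to 250000 reads per cell, which left out plate 7 cells 11 and 16, the medians were 64 over 18 cells and 73.5 over 24 cells. Listed genes as a whole behaved alike, with medians of 2054 and 2492 genes read. Across the cells of a plate the count of members followed the count of listed genes, with a Pearson correlation of 0.97 and a Spearman correlation of 0.97 over the 20 plate 7 cells and of 0.95 and 0.95 over the 24 plate 3 cells. Members are themselves listed genes, and both counts share the depth of the cell.

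**Figure D4:**
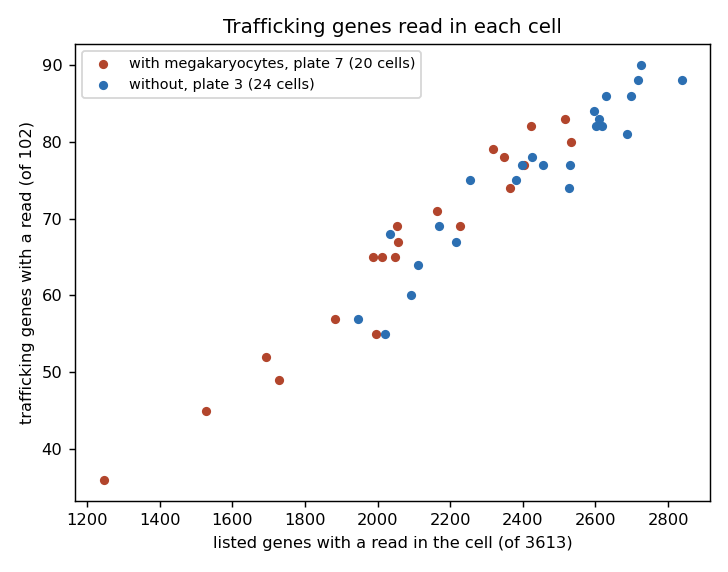
Trafficking genes with a read in a cell (of 102, vertical axis) against listed genes with a read (of 3613, horizontal axis), 1 point per cell, for 20 plate 7 cells (red) and 24 plate 3 cells (blue). The points of both plates rise along 1 band, from 36 members in plate 7 cell 16 to 90 members in a plate 3 cell.

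Reads of a member were also spread less evenly over plate 7 cells. The top cell held a median of 32.3% of a member's reads in plate 7 and 20.1% in plate 3, and 27 members against 5 had over 50% of their reads in 1 cell. Arf1, Arf6, Rab1, Rab7, Snx5 and Vamp8 were read in every plate 7 cell, against 26 members in every plate 3 cell, and 28 against 17 members were read in fewer than 50% of cells. Members hardly moved together from cell to cell: the median Spearman correlation over pairs of members read in at least 10 cells of the plate was 0.08 over 2701 pairs in plate 7 and 0.04 over 3655 pairs in plate 3. Values in this paragraph were computed for members only, so whether other listed genes differ from members in them was not tested.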

How the data were processed

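One deposited table of 3613 genes in 44 cells was used, and no column was left out. Per the labels, cells were captured on a Fluidigm C1 system, a SMART-Seq kit made the cDNA, a Nextera XT kit the libraries, and 150 b paired ends were read. The submitters' processing notes name mm10 and Seurat. Aligner, counter and annotation: not given in the sources used here. The authors deposited a signal of RPKM form: reads × 1e+09 divided by library reads and by a whole number per gene. This was inferred from the numbers themselves and gave whole reads for all 99807 values above 0 at a tolerance of 0.0001. The design was written for counts or such recovered reads, and no count model was fitted because each plate is 1 sample.

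Levels are recovered reads × 1e+06 / library reads, pooled per plate or per cell. Intervals are exact Clopper-Pearson for shares of cells, exact Poisson for reads and exact binomial for ratios and shares of reads. SDs are between cells. No cell was removed, clustered or checked with a doublet caller. The calling script was run on simulated cells with known fold changes. How often it called unchanged genes there is not given here, so the run lends the calls no support. Coordinates and exon overlaps come from GENCODE M21 on GRCm38 (101 of 102 members). Named genes were, in each family, the 2 (Rab: 4) highest and lowest differences among called members and the smallest difference, and from each list the largest. Vps28, Vps35, Vps41, Rab7, Rab31, Rab1, Arf1, Vamp3 and other members outside that rule, the complexes, and Dab2, Cav1, Cyth3 and the cargo receptors were chosen after their values or names were seen. The members and lists were chosen with earlier results of these data known. Markers of osteoclasts and endothelium are not among the listed genes. The single listed megakaryocyte marker, Pf4, which macrophages also express, had a median of 183 CPM (0 to 8749) in plate 7 and of 0 (0 to 4.55) in plate 3. The summed neutrophil markers S100a8 and S100a9 had medians of 5.01 and 0 CPM, and the lymphoid marker Ccl5 medians of 0 and 0. Python 3.11.15, numpy 2.4.6, pandas 2.3.3, scipy 1.17.1 and matplotlib 3.10.9 were used.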

Additional observations from a re-analysis of the deposited data

How the results depend on the processing

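Between 19 and 28 members were called higher under the settings that kept the 2-fold limit, and 14 at 4-fold. Lower calls numbered 14 to 23 under those settings except 1: without the top cell of each gene in each plate they rose from 17 to 28, and at 4-fold they dropped to 8. Among members these were 28.6% and 8.16%, while over all genes lower calls went from 28.2% to 37.8% and 13.4%. The 11 members added without top cells were Ap3m1, Ap3s2, Arl2bp, Copb1, Rab12, Rab21, Rab2a, Sec24b, Snx17, Stx3 and Vamp4. The members' median difference of -0.67 became -0.94 with listed reads as the total, -0.47 with a median of ratios, -1.19 with deposited means, -0.30 with a pseudocount of 10, -0.54 in cells thinned to 250000 reads and -0.53 without plate 7 cells 11 and 16. The median pooled log2 ratio of all genes shifted by -0.26 with listed reads and by 0.18 with a median of ratios. Its largest shift, -0.33, came without the top cells, from -0.14 to -0.47, while the members' median went from 0.21 to -0.06. Moves of single genes without top cells stand beside that general shift. No called member changed the sign of its pooled ratio. Of 60 uncalled members tested, 14 moved by over 1.5 times without top cells and 7 changed sign: Chmp2a, Chmp6, Rab12, Rab22a, Rab28, Sec61g and Vps36. Of 38 called members 29 kept their call under 11 settings other than 4-fold. Arl11, Rab7b, Rab11fip2, Rab33b, Rab35, Sec22b, Sec62, Vps28 and Vps33b lost it under at least 1. Counts per family moved by over 1.5 times in 34 of 240 comparisons, among them Rab genes called higher, 3 against 7 with a median of ratios, and called lower, 5 against 8 without top cells. A limit of 10 CPM for detection and a rule on pooled level alone were chosen after seeing the data and gave 21 and 24 higher, 14 and 17 lower. No paired analysis was possible because each plate is 1 sample, its result comes from no test, and the numbers in the titles only name cells. Depth limits what is seen in plate 7 cells 11 and 16, with 69181 and 71585 reads.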
